A study of Mus musculus with 10 samples.

Results

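The 49 genes described here encode the machinery that copies DNA in S phase and the factors that start, supply and guard it. They were taken by name, from general knowledge of replication, as origin licensing factors, subunits of the helicase, polymerases, sliding clamp and clamp loader, enzymes of deoxynucleotide supply, cyclin E and E2F genes, and fork repair and checkpoint genes. All 49 were found among the 54532 genes of the deposited table, each in a single row. Of these, 48 had enough counts to be tested and Orc1 did not.

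RNA of the peri-pulmonary vein portion of the mouse left atrium, the atrial wall around the pulmonary vein openings, was sequenced from 4 control libraries (Ctrl, R26creERT2/creERT2; Tbx5+/+) and 6 conditional knockout libraries (CKO, R26creERT2/creERT2; Tbx5 flox/flox). Tbx5 encodes a T-box transcription factor of the heart. Mice of both groups carried the tamoxifen-inducible Cre in the Rosa26 locus on both chromosomes and received tamoxifen on 3 days at 6 weeks of age, and tissue was taken 1 week later, at 7 weeks. Rosa26 is active in nearly all cell types, so the allele does not limit the deletion of Tbx5 to muscle cells. The libraries hold RNA of all cells of the dissected tissue, in which more cells of a type and more RNA per cell cannot be told apart. Per the design text the RNA came from 4 control and 6 mutant mice.

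In every S phase the genome is copied once. The origin recognition complex, CDC6 and CDT1 load the MCM ring onto DNA, and CDC45, MCM10 and the GINS complex turn it into an active helicase. Polymerase alpha with primase starts each strand, polymerases epsilon and delta extend it, and the clamp PCNA, loaded by the RFC complex, holds the polymerases on DNA. E2F transcription factors switch on many of these genes as cells leave G1. In the adult heart few muscle cells copy their DNA, while fibroblasts, endothelial cells and macrophages keep the ability to divide.

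The promoters of the 3 genes called higher in CKO and of E2f8, the gene with the next lowest p-value, are printed because these genes differed most clearly from Ctrl. The sequences are from RefSeq (GRCm38.p6), run 5′ to 3′ on the strand of the gene, and end at the base before its RefSeq start. Each holds up to 250 bases and begins after any annotated exon, so those of Cdc6 (169 bases) and Brca1 (193 bases) are shorter. In the Ensembl annotation Cdc6 begins at base 98907801, so its printed stretch lies within the gene as annotated there. Bases in capitals are matches, on either strand, to the 4 E2F spellings TTTCCCGC, TTTCGCGC, TTTGCCGC and TTTGGCGC, to CCAAT, or to TTTGAA, the core of the cell cycle homology region that mitotic genes often carry.
Cdc6, chr11:98907982-98908150, plus strand: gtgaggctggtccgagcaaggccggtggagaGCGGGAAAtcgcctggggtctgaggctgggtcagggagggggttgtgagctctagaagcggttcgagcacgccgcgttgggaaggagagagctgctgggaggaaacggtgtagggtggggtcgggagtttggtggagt
Brca1, chr11:101551956-101552148, minus strand: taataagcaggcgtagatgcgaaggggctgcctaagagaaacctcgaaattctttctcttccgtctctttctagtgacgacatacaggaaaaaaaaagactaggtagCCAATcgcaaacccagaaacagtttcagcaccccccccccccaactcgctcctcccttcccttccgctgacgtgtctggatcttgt
E2f7, chr10:110745189-110745438, plus strand: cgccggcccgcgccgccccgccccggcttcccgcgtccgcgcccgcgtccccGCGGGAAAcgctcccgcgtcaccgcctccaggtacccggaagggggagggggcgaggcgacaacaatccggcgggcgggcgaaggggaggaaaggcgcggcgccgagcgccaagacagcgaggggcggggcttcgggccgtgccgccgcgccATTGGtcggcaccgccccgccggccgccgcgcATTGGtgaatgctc
E2f8, chr7:48881597-48881846, minus strand: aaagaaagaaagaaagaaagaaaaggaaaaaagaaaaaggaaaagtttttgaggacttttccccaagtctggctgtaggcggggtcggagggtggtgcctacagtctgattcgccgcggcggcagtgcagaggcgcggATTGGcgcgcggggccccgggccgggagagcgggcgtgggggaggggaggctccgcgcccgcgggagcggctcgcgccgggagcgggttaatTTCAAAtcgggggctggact

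In Cdc6 the E2F spelling lies on the opposite strand, from 138 to 131 bases before the start, and in E2f7 it lies there from 198 to 191 bases before the start. Brca1 has CCAAT 86 to 82 bases before its start. E2f7 has CCAAT on the opposite strand at 46 to 42 and at 14 to 10 bases, and E2f8 has it at 112 to 108 bases, with TTTGAA on the opposite strand at 20 to 15 bases. Over windows from 250 bases before to 50 bases after the start, RefSeq gave 46 windows for 40 of the 49 genes. An E2F spelling was found in 17 of these windows (37.0%), against 2.26% of the 32851 windows of all genes. The genes with it were Orc1, Cdc6, Cdt1, Mcm3, Mcm5, Mcm6, Mcm7, Gins3, Pola1, Pold1, Rfc3, Lig1, Uhrf1, E2f2, E2f7, Brca2 and Clspn. CCAAT stood in 60.9% of the windows of these genes and 37.4% of all windows, and TTTGAA in 13.0% and 17.9%. No matches overlap in the printed promoters, and a match is a description of the letters in the window.

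Depth was even, with 8602794 to 10040808 estimated counts per library. The level of Tbx5 itself averaged 134 ± 31.6 CPM in the Ctrl group (SD, n = 4) and 268 ± 105 in CKO (n = 6), a log2 fold change of 1.00 with an adjusted p of 0.101, so its total level does not show the deletion. Exon 3, taken here as the floxed exon from general knowledge of the allele, had 0.903 to 1.70 times the coverage of the median Tbx5 exon in Ctrl and 0.175 to 0.618 times in CKO, with no overlap. The coverage of exon 3 itself overlapped, at 12.3 to 36.5 reads per base in Ctrl and 2.31 to 29.0 in CKO, and the ratio is relative to a total Tbx5 level whose mean was higher in CKO. Cardiomyocyte markers were abundant in all libraries, with Myh6 and Actc1 leading. Libraries differed in other ways too: Xist ran from 1004 to 1371 CPM in 5 libraries (Ctrl 1, Ctrl 2, CKO 1, CKO 2, CKO 3) and from 1.44 to 6.44 in the rest, markers of B cells summed to 576.5, 1181 and 795.7 CPM in Ctrl 3, Ctrl 4 and CKO 4 and to at most 56.5 elsewhere, and airway markers to 1340 in Ctrl 3 and 2366 in CKO 4. Across all tested genes, 274 of 17752 were higher in CKO and 223 were lower at an adjusted p under 0.05 (edgeR). Scaling by library size alone gave 227 higher and 288 lower.

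The replication genes together had a higher level in CKO, though few passed the test singly. Cdc6, Brca1 and E2f7 rose at an adjusted p under 0.05 and 0 fell (0 with DESeq2 and limma-voom too), where 1.54% of all tested genes were called higher and 1.26% lower. At an unadjusted p under 0.05, 22 of 48 were higher and 0 lower, against 8.86% of all genes higher and 8.14% lower. The fitted log2 fold change was above 0 for 43 of 48, against 46.6% of all genes. In 8 genes (Cdc6, Mcm2, Mcm3, Pola1, Pole, E2f7, E2f8 and Brca1) all 6 CKO libraries lay above all 4 Ctrl libraries, and 0 lay wholly below, against 3.03% and 2.7% of all genes. The median log2 fold change was 0.51 (range -0.10 to 2.68), beside -0.03 over all tested genes. The plot of fold changes by role shows each gene with its error.

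**Figure D1:**
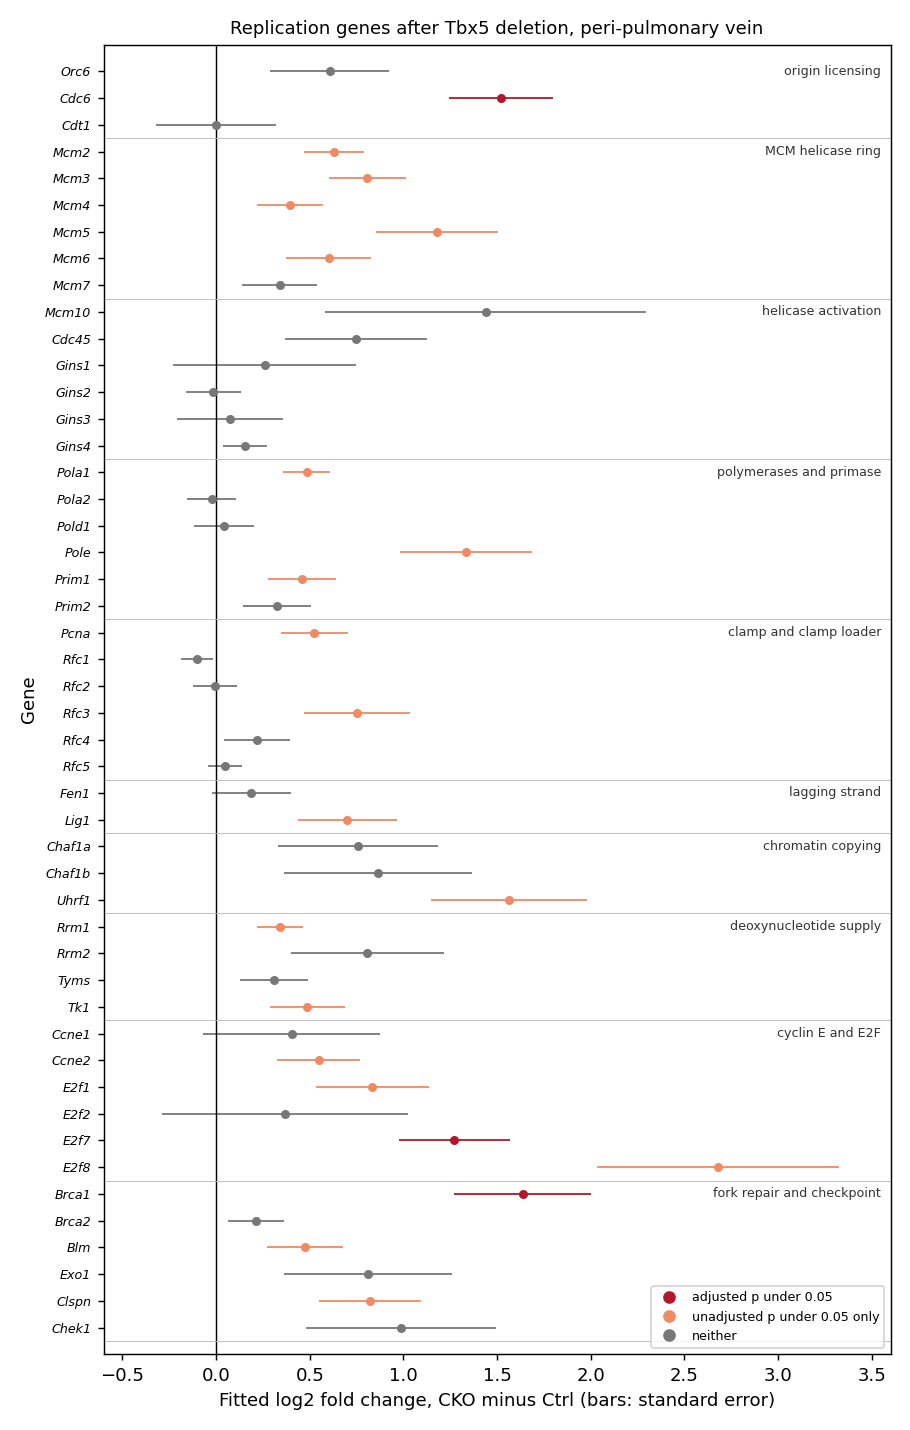
Fitted log2 fold change (CKO minus Ctrl, x axis) of the 48 tested genes, grouped by role, with bars for the standard error (4 Ctrl and 6 CKO libraries). Dark red marks an adjusted p under 0.05 (Cdc6, E2f7 and Brca1), orange an unadjusted p under 0.05 only, grey neither, and all but 5 points lie right of 0.

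Summed over the 49 genes, the level was 411.9, 464.2, 490.6 and 484.4 CPM (normalised counts) in Ctrl 1 to 4, and 614.3, 552.9, 465.9, 611.5, 767.4 and 593.2 CPM in CKO 1 to 6. The groups thus overlapped through CKO 3, which lay inside the Ctrl range, while CKO 5 stood highest. The means were 462.8 ± 35.8 (SD, n = 4) and 600.8 ± 98.6 CPM (n = 6), a ratio of 1.298. Leaving out any single library kept the ratio between 1.23 and 1.36. In CKO 5, 40 of 48 tested genes were above the highest Ctrl library, in CKO 1 and CKO 6 each 32, in CKO 4 29, in CKO 2 24, and in CKO 3 12. CKO 5 held the highest value of all libraries for 34 genes, Ctrl 1 the lowest for 20 and CKO 3 the lowest for 8. CKO 5, highest in this sum, also had the lowest relative coverage of Tbx5 exon 3, 0.175. For CKO 3 that coverage was 0.482, between those of the other CKO libraries.

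**Figure D2:**
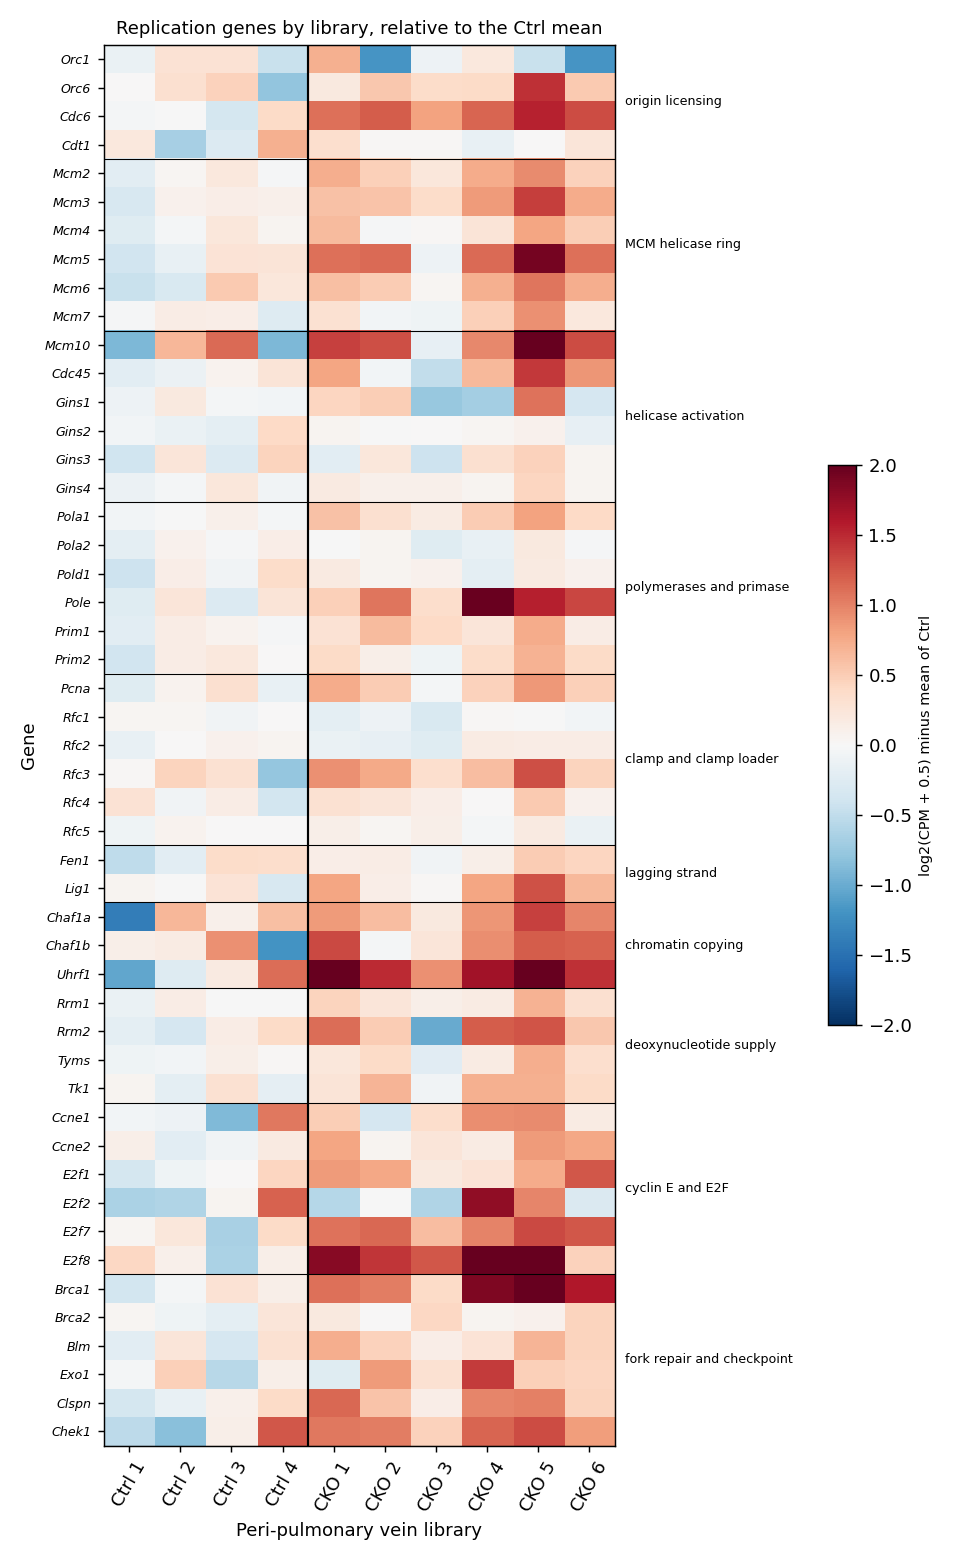
Level of each of the 49 genes (rows, by role) in each library (columns) as log2(CPM + 0.5) minus the mean of the 4 Ctrl libraries, red for higher and blue for lower. The column of CKO 5 is the reddest, with the highest value for 34 genes, and that of CKO 3 is close to the Ctrl columns, with 12 of 48 genes above the highest Ctrl library.

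Among the origin licensing genes, Cdc6 rose. Cdc6, which loads the MCM ring together with the origin recognition complex, was at 0.951, 0.983, 0.666 and 1.44 CPM in Ctrl 1 to 4 and at 2.69, 2.94, 2.09, 2.83, 3.82 and 3.16 CPM in CKO 1 to 6. The lowest CKO library was above the highest Ctrl library. Its means were 1.01 ± 0.320 and 2.92 ± 0.571 CPM, its log2 fold change 1.52 with a standard error of 0.28, and its adjusted p 0.0155. Cdc6 kept this call in 17 of 23 alternative analyses and lost it without Ctrl 1 or without Ctrl 2. Orc6, a subunit of the origin recognition complex and the licensing gene with the highest TPM (a level scaled by transcript length; 14.2 ± 2.72 in Ctrl and 17.5 ± 2.105 in CKO), was at 5.92, 7.54, 8.33 and 3.21 CPM in Ctrl 1 to 4. In CKO 1 to 6 it was at 6.83, 8.82, 7.80, 7.88, 17.1 and 8.70 CPM. The groups overlapped and the log2 fold change of 0.61 had an adjusted p of 0.362. Cdt1, the partner of CDC6 in licensing, was at 1.99 ± 1.02 and 1.99 ± 0.309 CPM. Orc1, the largest subunit of the complex, was at 0.656 ± 0.273 and 0.505 ± 0.517 CPM, with 0 to 12 counts per library, too few to be tested.

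All 6 genes of the MCM ring had a fold change above 0, and 5 of them (not Mcm7) had an unadjusted p under 0.05, with 0 past the adjusted threshold. Mcm2 was at 9.51, 11.4, 12.9 and 10.8 CPM in Ctrl and at 13.1 to 21.8 CPM (median 17.1) in CKO, a log2 fold change of 0.63 with an adjusted p of 0.0684. Mcm3 was at 7.92, 10.6, 10.99 and 10.7 CPM in Ctrl and at 13.1 to 26.9 CPM (median 16.1) in CKO, with a log2 fold change of 0.81 and an adjusted p of 0.0646. For both genes no CKO library fell within the Ctrl range. The largest fold change in the ring was that of Mcm5, 1.18 with a standard error of 0.33 and an adjusted p of 0.0889, from 7.48 ± 1.73 to 16.9 ± 7.03 CPM. Its CKO 3 value, 6.81 CPM, lay within the Ctrl range of 5.49 to 8.99, and the other CKO libraries were at 16.3 CPM or more. Mcm6 had the highest TPM of the ring by the mean over all 10 libraries, with 15.6 ± 5.42 in Ctrl, where Mcm7 had a slightly higher mean, and 21.4 ± 3.43 in CKO. It was at 14.7, 16.3, 29.2 and 23.8 CPM in Ctrl 1 to 4 and at 31.0, 29.1, 20.8, 33.5, 42.8 and 33.9 CPM in CKO 1 to 6, so the groups overlapped. Its log2 fold change was 0.60 with an adjusted p of 0.213. Mcm4 had a log2 fold change of 0.39 and Mcm7 of 0.34. Although the proteins form a ring with equal numbers of each subunit, the mean TPM in Ctrl ran from 5.36 ± 0.925 for Mcm5 to 15.8 ± 2.07 for Mcm7, and in CKO from 10.50 ± 1.57 for Mcm2 to 21.4 ± 3.43 for Mcm6. In Ctrl the TPM of Mcm5, Mcm2 (8.01 ± 0.816) and Mcm3 (12.02 ± 2.45) stood apart by more than their SDs, while Mcm3, Mcm4, Mcm6 and Mcm7 did not. In CKO, where Mcm5 was at 11.7 ± 4.32 TPM, the SDs of all neighbours in the order overlapped.

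Of the 6 genes that activate the helicase, 0 had an unadjusted p under 0.05, and their log2 fold changes ran from -0.02 to 1.44. Gins4, a GINS subunit and the most abundant of them per length (26.5 ± 1.61 TPM in Ctrl and 26.7 ± 0.471 in CKO), was at 15.9, 17.0, 20.4 and 16.6 CPM in Ctrl 1 to 4. In CKO 1 to 6 it was at 19.8, 18.7, 18.7, 18.1, 23.6 and 18.2 CPM, overlapping Ctrl, with a log2 fold change of 0.16. Cdc45, which joins MCM and GINS in the moving helicase, was at 2.54 ± 0.437 and 4.27 ± 2.09 CPM, with a log2 fold change of 0.74 and an adjusted p of 0.348. Mcm10, a factor that helps the helicase to start, was at 0 in Ctrl 1 and Ctrl 4 and at most 3.27 CPM in any library, and its log2 fold change of 1.44 had a standard error of 0.86. Gins1, Gins2 and Gins3 had log2 fold changes of 0.26, -0.02 and 0.07. For Gins2, 67.3% of the annotated exon bases are shared with Gse1 on the opposite strand. Reads of the pair can be told apart only if the libraries kept the strand, which was not tested.

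Among polymerases and primase the fold changes differed widely between subunits. Pole, the catalytic subunit of the polymerase of the leading strand, was at 2.75, 4.04, 2.67 and 4.10 CPM in Ctrl and at 4.39 to 14.6 CPM (median 8.36) in CKO. No CKO library reached down into the Ctrl range, by a narrow margin for CKO 3, and the log2 fold change was 1.33 with an adjusted p of 0.0759. Pola1, the catalytic subunit of polymerase alpha, was at 21.8, 22.4, 24.4 and 22.04 CPM in Ctrl and at 25.4 to 40.0 CPM (median 31.1) in CKO, again without overlap, with a log2 fold change of 0.48 and an adjusted p of 0.0723. Its regulatory subunit Pola2 was at 11.4 ± 1.18 and 11.2 ± 1.24 CPM, a log2 fold change of -0.02. Pold1, the catalytic subunit of the polymerase of the lagging strand, was at 10.1, 14.97, 13.0 and 17.7 CPM in Ctrl 1 to 4 and at 15.6, 14.3, 14.5, 11.8, 15.5 and 14.6 CPM in CKO 1 to 6. All Pold1 values of CKO lay within the Ctrl range, and at 14.98 ± 7.75 and 18.4 ± 3.41 TPM it was the most abundant of these genes per length. The primase genes Prim1 and Prim2 had log2 fold changes of 0.46 (unadjusted p of 0.0283, adjusted 0.235) and 0.33 (adjusted 0.394).

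The sliding clamp gene Pcna had the highest TPM of the 49 genes by the mean over all 10 libraries, with Rfc1 higher in Ctrl (36.5 ± 5.62 TPM, and 30.0 ± 4.23 in CKO), and 4 of the 5 loader subunits had a fold change close to 0. Pcna was at 28.9 ± 3.402 TPM in Ctrl and 37.0 ± 5.76 TPM in CKO. In CPM it was at 16.5, 20.4, 24.5 and 17.5 in Ctrl 1 to 4 and at 33.0, 27.8, 19.0, 27.1, 36.1 and 27.3 in CKO 1 to 6. CKO 3 lay within the Ctrl range and the other CKO libraries above it, with a log2 fold change of 0.52 and an adjusted p of 0.164. The genome also has 2 named Pcna pseudogenes, whose reads could be shared with the gene. Of the loader subunits, Rfc1 (-0.10), Rfc2 (-0.01) and Rfc5 (0.05) had log2 fold changes near 0, Rfc4 had 0.22, and Rfc3 had 0.75 with an unadjusted p of 0.0223 and an adjusted p of 0.212. Rfc1, the large subunit, was at 67.0 ± 2.39 CPM for Ctrl against 62.4 ± 5.25 for CKO, the highest CPM of all 49 genes. The plot of subunit levels sets the ring beside the clamp and its loader.

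**Figure D3:**
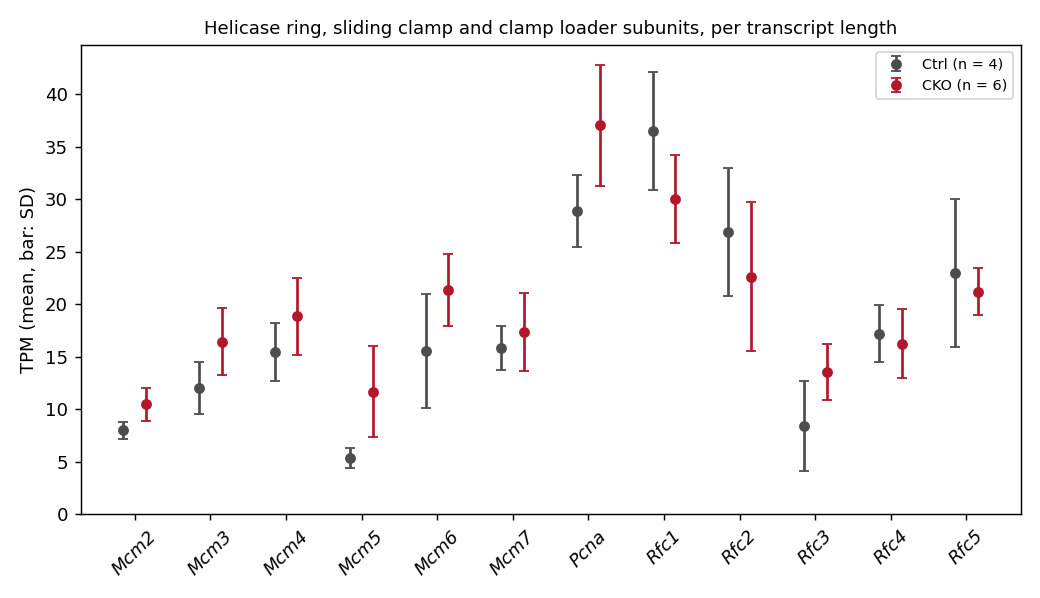
Level per transcript length (TPM, mean with SD) of the 6 MCM ring subunits, Pcna and the 5 clamp loader subunits in Ctrl (grey, n = 4) and CKO (red, n = 6). The mean is higher in CKO for every ring subunit and for Pcna, while for Rfc1, Rfc2, Rfc4 and Rfc5 it is higher in Ctrl, with overlapping bars for these 4.

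Lig1, the ligase that seals the fragments of the lagging strand, was at 5.57 ± 1.01 CPM for Ctrl against 9.06 ± 3.04 for CKO, with a log2 fold change of 0.70 (unadjusted p of 0.0218, adjusted 0.211). Fen1, the nuclease that trims those fragments, was at 5.49, 6.88, 10.4 and 10.3 CPM in Ctrl 1 to 4 and at 8.84, 8.92, 7.58, 8.69, 11.6 and 10.96 CPM in CKO 1 to 6. The groups overlapped, with a log2 fold change of 0.19 and 7.27 ± 2.19 TPM in Ctrl against 7.65 ± 1.120 in CKO. Of the exon bases of Fen1, 78.8% are shared with Gm10143 on the opposite strand.

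The chromatin copying genes had the highest ratio of summed levels, 2.31, from 8.49 ± 3.61 to 19.6 ± 5.57 CPM. Uhrf1, which reads DNA that is methylated on the old strand only and brings in the maintenance methyltransferase, was at 1.37, 2.73, 3.89 and 7.86 CPM in Ctrl 1 to 4. It was at 15.2, 10.4, 6.81, 11.9, 15.7 and 10.2 CPM in CKO 1 to 6. Only CKO 3 lay within the Ctrl range, through the high value of Ctrl 4, and the log2 fold change of 1.56 had a standard error of 0.42 and an adjusted p of 0.0792. Per length Uhrf1 was at 2.66 ± 1.76 TPM in Ctrl and 7.30 ± 2.20 TPM in CKO. Chaf1a and Chaf1b, subunits of the assembly factor that places histones on new DNA, had log2 fold changes of 0.76 and 0.86 with adjusted p of 0.397 and 0.412. Chaf1a shares 52.5% of its exon bases with Ubxn6 on the opposite strand.

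Genes of deoxynucleotide supply had log2 fold changes from 0.31 to 0.81, and 0 passed the adjusted threshold. Rrm1, the large subunit of ribonucleotide reductase, was at 35.9, 43.9, 39.1 and 39.4 CPM in Ctrl 1 to 4 and at 53.9, 46.6, 42.8, 44.3, 64.3 and 49.4 CPM in CKO 1 to 6. Only CKO 3 fell below the highest Ctrl library, and the log2 fold change was 0.34 with an unadjusted p of 0.0172 and an adjusted p of 0.187. Rrm1 was at 21.4 ± 2.21 TPM in Ctrl and 25.6 ± 1.78 TPM in CKO. Rrm2, the small subunit, whose supply is tied to S phase, was at 4.38 ± 1.12 and 7.66 ± 3.49 CPM. Its CKO 3 value of 1.87 CPM was the lowest of all libraries and its CKO 5 value of 10.9 the highest, with a log2 fold change of 0.81 and an adjusted p of 0.345. Tyms, which makes thymidylate, and Tk1, which salvages thymidine, had log2 fold changes of 0.31 and 0.49, the second with an unadjusted p of 0.0335 and an adjusted p of 0.249.

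Of the cyclin E and E2F genes, E2f7 rose. E2f7 and E2f8 encode repressors that act late in S phase on E2F target genes. E2f7 was at 1.37, 1.64, 0.666 and 1.88 CPM in Ctrl 1 to 4 and at 3.36, 3.57, 2.31, 3.13, 4.04 and 3.84 CPM in CKO 1 to 6, without overlap. Its means were 1.39 ± 0.525 and 3.37 ± 0.616 CPM, with a log2 fold change of 1.27, a standard error of 0.30 and an adjusted p of 0.0464. E2f7 was called in 6 of 23 alternatives, and of the 10 that leave out a single library, in that without CKO 3. E2f8 was at 0.528, 0.328, 0 and 0.332 CPM in Ctrl, and at 0.565 to 3.38 CPM (median 1.91) in CKO. The groups did not overlap, but the lowest CKO library, CKO 6, was close to the highest Ctrl library, and the log2 fold change of 2.68 had a standard error of 0.65 and an adjusted p of 0.0542. Among the activators, E2f1 had a log2 fold change of 0.83 (unadjusted p of 0.0183, adjusted 0.194) and E2f2 of 0.37. E2f2 was highest in CKO 4 (7.78 CPM) and Ctrl 4 (4.98 CPM), both rich in B cell markers. It was at 1.999 CPM in Ctrl 3, also rich in them, and at 4.26 CPM in CKO 5, which was not. What B cells add to E2f2 was not tested. Ccne2, a cyclin E, was at 5.60, 4.37, 4.89 and 5.87 CPM in Ctrl 1 to 4 and at 9.29, 5.35, 6.15, 5.86, 9.71 and 9.15 CPM in CKO 1 to 6. Of these, CKO 2 and CKO 4 lay within the Ctrl range, and the log2 fold change was 0.55 with an adjusted p of 0.242. Ccne2 was at 4.16 ± 1.86 TPM in Ctrl and 5.68 ± 2.31 TPM in CKO, and Ccne1 had a log2 fold change of 0.40.

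Of the fork repair and checkpoint genes, Brca1 rose. Brca1, which acts in repair of broken forks by recombination, was at 1.37, 1.86, 2.44 and 2.104 CPM in Ctrl 1 to 4 and at 4.70, 4.41, 2.64, 8.29, 9.60 and 6.78 CPM in CKO 1 to 6. The groups did not overlap, with CKO 3 nearest to Ctrl. The means were 1.94 ± 0.450 and 6.07 ± 2.62 CPM, the log2 fold change 1.64 with a standard error of 0.37, and the adjusted p 0.0378. Brca1 too was called in 6 of 23 alternatives and, among those leaving out 1 library, in that without CKO 3. Brca2, which loads the recombinase at such forks and is the most abundant of these genes per length (7.74 ± 3.42 TPM in Ctrl and 5.72 ± 1.95 in CKO), was at 10.2, 9.40, 8.66 and 11.8 CPM in Ctrl 1 to 4. In CKO 1 to 6 it was at 11.52, 10.1, 13.5, 10.4, 10.6 and 13.8 CPM, and its log2 fold change of 0.21 had an adjusted p of 0.496. The TPM of Brca2 had its higher mean in Ctrl and the CPM its higher mean in CKO. The same held for Gins3, Rfc4 and Rfc5, and the reverse for Orc1. TPM was used as deposited, without the TMM scaling applied to the CPM. Clspn, which passes the stalled fork signal to the kinase CHK1, had a log2 fold change of 0.82 (unadjusted p of 0.0112, adjusted 0.153), and Chek1, which encodes that kinase, of 0.99 (adjusted 0.352). The helicase gene Blm had 0.48 with an unadjusted p of 0.0400 and an adjusted p of 0.268, and the nuclease gene Exo1 had 0.81.

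The 5 genes with a fold change below 0, Cdt1, Gins2, Pola2, Rfc1 and Rfc2, lay between -0.10 and 0, and the sign was not stable for them, with 15, 9, 8, 1 and 12 of 23 alternatives of the opposite sign. Among the tested genes, fold changes were larger for those of lower level. The 24 tested genes of lower mean TPM (0.456 to 6.53) had a median log2 fold change of 0.78 and held all 3 calls, and the 24 of higher mean TPM (6.68 to 33.8) had a median of 0.37 and 0 calls. A gene of low level could pass the filter on counts through its CKO libraries alone. E2f8 did so, at 0 to 0.528 CPM in Ctrl and 0.565 to 3.38 CPM in CKO. What this adds to the median of the lower set was not tested, and no such split was made over all tested genes. Among tested genes with a RefSeq window, the median log2 fold change was 0.65 over 16 genes with an E2F spelling and 0.52 over 23 without, with overlapping ranges. By position, 8 of the 49 genes lie on chromosome 5, and 6 on each of chromosomes 7 and 8, where Gins2, Gins3, Gins4, Orc6, Mcm5 and Cdt1 are.

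The number of calls depended on the libraries and the tool. Without CKO 3, 8 replication genes were called higher, with 1.72% of all genes. It was 0 without Ctrl 1 or without Ctrl 2. It was 1 without Ctrl 3, CKO 1, CKO 2, CKO 4 or CKO 5, and 2 without Ctrl 4 or CKO 6. Of 17480 to 18148 tested genes, 103 were called higher without Ctrl 1, 87 without Ctrl 2, 293 without Ctrl 3 and 115 without Ctrl 4. Without CKO 1, 2, 4, 5 and 6 there were 159, 175, 274, 208 and 183. DESeq2 called 10 (Cdc6, Mcm2, Mcm3, Mcm5, Pola1, Pole, Uhrf1, E2f7, E2f8 and Brca1). It called 681 of all genes higher, 2.05% of the 33196 with any count. These include genes of low count that DESeq2 can leave without an adjusted p, so the share is not comparable with that of edgeR. Among the 5 libraries with high Xist the sum ratio was 1.25 and the median log2 fold change 0.42, and among the 5 with low Xist they were 1.37 and 0.55, with 0 calls in each. Without the 3 libraries rich in B cell markers they were 1.37 and 0.60, with 1 call.

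Of 54 further replication genes, 51 were tested, 2 rose and 0 fell, 42 had a fold change above 0, and the median log2 fold change was 0.21. The 2 were Dck, a kinase of deoxynucleoside salvage (7.17 ± 1.23 to 12.1 ± 1.16 CPM, log2 fold change 0.75, adjusted p 0.0247), and Esco2, which acetylates cohesin behind the fork (1.04 ± 0.222 to 4.002 ± 2.07 CPM, 1.93, adjusted p 0.0339). Their sum was 954.6 to 1132 CPM in Ctrl and 1055 to 1276 in CKO, overlapping. Of 30 genes of G1 control, 29 were tested and 0 were called by edgeR, DESeq2 or limma-voom, while 4 were higher and 2 lower at an unadjusted p under 0.05, and the median was 0.07. Cyclin D2 (Ccnd2) led that list at 172.6 ± 42.3 CPM in Ctrl and 142.4 ± 24.0 in CKO, followed by Rbl2, a relative of the retinoblastoma gene, at 68.1 ± 3.35 and 62.5 ± 3.46 CPM. Of 43 mitosis genes, 41 were tested, 27 rose and 0 fell, and the median was 2.00. Beside these lists, 1.54% of all tested genes were called higher, 1.26% were called lower, and 46.6% had a fold change above 0. At an unadjusted p under 0.05, 8.86% of all tested genes were higher and 8.14% lower.

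The mitosis genes summed to 139.0, 153.9, 153.0 and 166.9 CPM in Ctrl 1 to 4 and to 488.6, 368.9, 254.9, 506.3, 832.5 and 451.5 CPM in CKO 1 to 6, without overlap. CKO 5 was highest and CKO 3 lowest of the CKO libraries, as in the sum of the replication genes. By adjusted p the first were the kinesin genes Kif4 (log2 fold change 3.35, adjusted p 0.00184), Kif11 (2.80, 0.00245) and Kif20a (2.42, 0.00355), and Bub1b of the spindle checkpoint (2.92, 0.00524). The count of mitosis genes called higher was 9 without Ctrl 2, 11 without Ctrl 1 and 16 without Ctrl 4. It was 17 without CKO 1 and 31 without CKO 3. In the same order, 87, 103, 115, 159 and 302 of all tested genes were called higher.

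**Figure D4:**
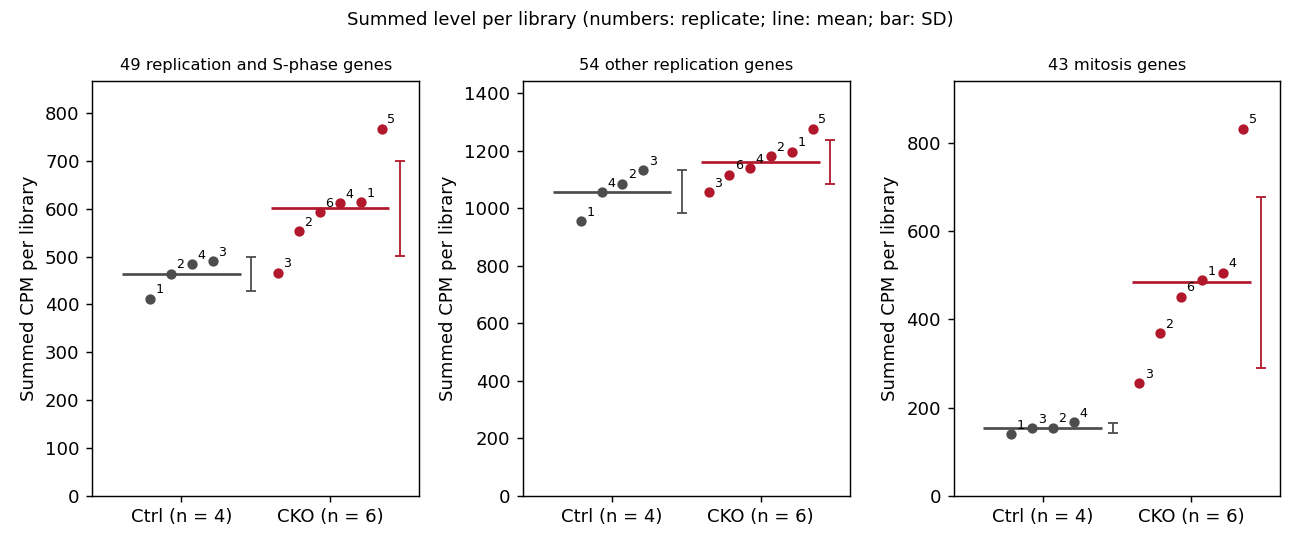
Summed CPM per library of the 49 genes, of 54 other replication genes and of 43 mitosis genes in Ctrl (grey, n = 4) and CKO (red, n = 6), with numbers for the replicate, a line for the mean and a bar for the SD. The mitosis sums do not overlap between groups (139.0 to 166.9 against 254.9 to 832.5 CPM), while CKO 3 at 465.9 CPM lies in the Ctrl range of the 49 genes.

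Markers of several cell types that keep the ability to divide had higher mean sums in CKO, and their part in the results above was not tested. The 12 macrophage and monocyte markers summed to 978 to 2021 CPM in Ctrl and 1469 to 2814 in CKO, with Cd68, C1qb and Cd163 called higher, and Lyz2 and Mrc1 the most abundant. The 9 markers of blood endothelium summed to 1308 to 2091 CPM in Ctrl and 2350 to 3099 in CKO, without overlap. Vwf was called higher (666.6 ± 198.5 to 1368 ± 249.1 CPM), and Pecam1 was next in level. Vwf made up a large part of the sum, whose means were 1770 CPM in Ctrl and 2717 in CKO. All 9 had a fold change above 0, with a median log2 value of 0.23. The 10 fibroblast markers summed to 9814 to 15940 CPM in Ctrl and 13010 to 20460 in CKO, led by Gsn and Col3a1. Postn was called higher (153.9 ± 44.6 to 613.8 ± 295.3 CPM). Of the 10 fibroblast markers, 3 lay wholly above Ctrl in CKO and 1 lay wholly below. These counts were 4 and 0 for the macrophage and monocyte markers, 2 and 0 for blood endothelium, and 1 and 4 for cardiomyocytes. Of all tested genes, 3.03% lay wholly above and 2.7% wholly below, while 1.54% were called higher and 1.26% lower. The 10 cardiomyocyte markers summed to 45250 to 52260 CPM in Ctrl and 36440 to 54220 in CKO, with Tnnt2 called higher and Myl4, Myl7 and Sln lower. Erythroid markers, led by Hbb-bs and Hbb-bt, summed to 204.0 to 449.5 CPM in Ctrl and 176.4 to 1569 in CKO.

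Of the lymphoid markers, those of B cells were high in Ctrl 3, Ctrl 4 and CKO 4, as given above, and those of T cells and thymocytes were low in all libraries. The 9 T and NK cell markers, led by Cd2 and Cd4, summed to 3.82 to 26.5 CPM in Ctrl and 5.38 to 15.5 in CKO, with Nkg7 at 0 in all libraries. Thymocyte markers summed to 0.218 to 2.12 CPM over all libraries, with Dntt at 0. Of 8 neutrophil markers, Ly6g, Retnlg, Mpo and Elane were at 0, and the sum was 6.02 to 12.8 CPM. Smooth muscle and pericyte markers, led by Rgs5 and Acta2, summed to 1226 to 1792 CPM in Ctrl and 1301 to 1820 in CKO. Sums of the 2 groups overlapped also for Schwann cells (26.0 to 59.5 and 19.6 to 30.6 CPM), epicardium and mesothelium (162.3 to 461.4 and 166.8 to 530.5 CPM) and adipocytes (1015 to 1958 and 448.5 to 2001 CPM).

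The authors' deposited table compares CKO with Ctrl in the peri-pulmonary vein and in the left atrial appendage, the muscular pouch of the atrium, whose libraries were not analysed here. It lists 41 of the 49 genes, without Orc1, Mcm10, Gins1, Ccne1, E2f2, E2f8, Exo1 and Chek1. Its peri-pulmonary vein fold changes have the sign of those computed here for all 41, and differ by at most 0.0254 on the log2 scale. Appendage values were read in the same direction. In the authors' deposited table, 7 of the 41 genes were higher in the peri-pulmonary vein at a false discovery rate under 0.05 (Cdc6, Mcm3, Mcm5, Pole, Uhrf1, E2f7 and Brca1) and 0 lower, against 3.03% and 2.47% of its 13646 genes. In the appendage 32 were higher and 1 lower there, against 16.8% of all genes higher and 17.9% lower.

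In the authors' deposited table the fold changes of the 41 genes had a median log2 value of 0.47 in the peri-pulmonary vein and 1.17 in the appendage, beside -0.00923 and 0.0154 over all genes. The appendage value was the larger for 7084 of the 13628 genes both tested here and listed, and for 38 of 40 mitosis genes. For 36 of the 41 replication genes the appendage value was the larger. Uhrf1 was highest there, at 3.91 against 1.54 in the peri-pulmonary vein, and Cdc45 was at 2.62 against 0.72, Mcm5 at 2.58 against 1.16, Rrm2 at 2.53 against 0.79 and E2f7 at 2.52 against 1.25 in the authors' deposited table. Of the genes closest to 0 in the peri-pulmonary vein, higher calls in the appendage were given for Cdt1 (1.08, false discovery rate 0.00837), Gins2 (0.90, 0.00124), Pold1 (0.53, 0.0345) and Rfc2 (0.39, 0.0374), while Gins3 (0.42, 0.298), Pola2 (0.13, 0.666) and Rfc5 (0.30, 0.179) did not pass there either, per the authors' deposited table. Rfc1 was lower in the appendage, at -0.87, and Pola1 was at -0.33 there and 0.47 in the peri-pulmonary vein in the authors' deposited table. Whether the regions differ in their response was not tested. In the table's comparison of the regions themselves, whose direction and samples the table does not state, 0 of 41 genes had a false discovery rate under 0.05 (lowest 0.0923, Clspn), against 12.2% of all genes.

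**Figure D5:**
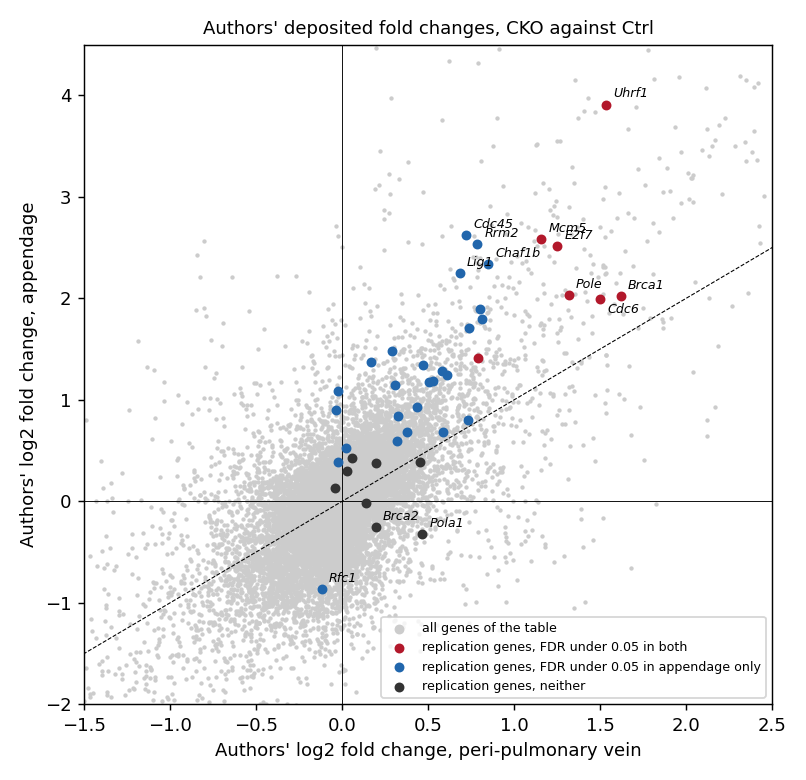
Log2 fold change of CKO against Ctrl in the appendage (y axis) and in the peri-pulmonary vein (x axis) from the authors' deposited table, for all genes (grey, those beyond the axes not drawn) and the 41 replication genes listed, with the dashed line for equal values. Red marks 7 genes with a false discovery rate under 0.05 in both regions, blue those under it in the appendage alone (all higher but Rfc1), and 36 of 41 points lie above the line.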

How the data were processed

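Per the submitters' processing notes and the design text, reads were aligned with TopHat2 2.1.1 to mm10, filtered with BamTools for poorly aligned, duplicated and unmapped reads, and assigned with StringTie 1.3.3; R 3.4.0, limma 3.32.10 and edgeR 3.18.1 are also named. Per the file headers, StringTie used the Ensembl 94 annotation of GRCm38 and the --rf option. The labels name both ribosomal RNA depletion and polyA RNA, which is not settled here. The deposited gene table holds estimated counts per gene, whole numbers that equal, for all 54532 genes in all 10 libraries, coverage times length over 50, rounded up per transcript and summed; they are made from coverage and are not raw reads. The deposited transcript files give coverage and TPM, which were summed per gene. The authors' table gives log2 fold changes, a p-value and a false discovery rate for 13646 genes; its filter and model are not given in the sources used here. In the gene table, 10 columns of other libraries were not used.

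Counts were tested with edgeR 4.0.16 in R 4.3.3 (filterByExpr, TMM, quasi-likelihood F test of CKO against Ctrl, no covariate), with Benjamini-Hochberg adjustment over 17752 genes and a threshold of 0.05. CPM is relative to library sizes after TMM; standard errors are fold changes divided by the root of F. The script was tested on simulated data. Replicates differed by more than counting error (lowest chi-square over its degrees of freedom 10.1). The genes, lists and tests were chosen with earlier results of these data known, so the counts for a list are a description. Genes given in full are those past the threshold and the member of each role with the highest mean TPM; near-threshold genes were added as those without overlap or with the largest fold change of their role, after their values were seen. Promoters are RefSeq windows of GRCm38.p6. The printed ones are trimmed to the bases before the start that follow any annotated exon, and motif shares are over the whole windows. Exon overlaps come from GENCODE M21. Alternatives were other scalings and filters, DESeq2 1.42.0, limma-voom 3.58.1, a replicate block, a covariate for Xist, and leaving out libraries.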

Additional observations from a re-analysis of the deposited data

Results flagged for a closer look

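In 106 sets of values (each of the 49 genes and 4 summed levels in each group), the highest or lowest library was compared with its nearest neighbour over the range of its group, a rule by which chance alone picks about 1 in 20 sets. It picked 6. CKO 5 was far above the other CKO libraries for Orc6 (17.13 CPM, next 8.819) and Gins4 (23.57 CPM, next 19.8). Among the low values, Mcm3 was at 7.923 CPM in Ctrl 1 (next 10.6), Gins2 at 9.943 CPM in CKO 6 (next 11.23) and Pold1 at 11.83 CPM in CKO 4 (next 14.28). Gins1 was highest in Ctrl 2, at 1.53 CPM (next 1.222).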

How the results depend on the processing

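Over 23 alternatives, 10 of them leaving out 1 library, no result passed the threshold in the opposite direction. Of the values for 22 single genes 444 stayed on their side of the threshold, 22 newly passed it and 40 lost it. Most values that stayed belonged to genes not called in the main analysis. All 40 losses were of the 3 called genes, with Cdc6 called in 17 of 23 alternatives and E2f7 and Brca1 each in 6. Of the counts and summary values 214 stayed and 62 moved. Those that stayed include counts of 0 that remained 0. The median and the sum ratio stayed throughout, as shifts under 0.249 and 0.213 (SDs among CKO libraries) counted as staying. All 62 that moved were counts above 0 in the main analysis. With library size scaling 1 replication gene was higher, without a filter 1, with DESeq2 10, with Xist as covariate 8 (2.07% of all genes), without both Ctrl 3 and CKO 4 1, without the 3 libraries rich in B cell markers 1, and in libraries of high or low Xist 0 and 0. For all genes, those higher were 227 with library size scaling, 195 without a filter, 681 with DESeq2 and 237 with limma-voom. They were 367 with the Xist covariate and 254 without both Ctrl 3 and CKO 4. Without the B cell rich libraries there were 53, and at high and low Xist 109 and 3. Those lower were 147 without a filter, 410 with DESeq2, 113 without the B cell rich libraries and 0 at low Xist. These settings tested 17752 to 18482 genes, or 33196 without a filter and with DESeq2. For the other replication genes, those higher were 1 without a filter, 6 with DESeq2, 1 with limma-voom, 5 with the Xist covariate, 0 without both Ctrl 3 and CKO 4, 1 without the B cell rich libraries, and 1 and 0 at high and low Xist. For mitosis genes they were 17 with limma-voom, 17 without both Ctrl 3 and CKO 4, 2 without the B cell rich libraries, and 5 and 0 at high and low Xist. Leaving out single libraries gave 0 to 8 replication genes higher, 87 to 302 of all genes higher and 103 to 314 lower, 0 to 3 other replication genes and 9 to 31 mitosis genes higher, and medians of 0.43 to 0.59. The Xist and B cell settings were chosen after seeing the data; smaller sets hold fewer libraries, and other causes were not tested. Between a Ctrl and a CKO library with equal replicate number, correlations were 0.024, 0.0804, -0.291 and 0.0817. These values give no sign of pairing by number, but so few pairs cannot exclude it. With the replicate block, 0 replication genes, 11 of all genes higher and 26 lower, 0 other replication genes and 2 mitosis genes were called. CKO 5 and CKO 6 have no Ctrl partner within a block, so this fall in calls does not show whether the numbers pair libraries. Genes at a few counts, such as E2f8, Mcm10 and Orc1, are limited by depth. The called genes were low too, at 6 to 35 counts per library for Cdc6, 6 to 37 for E2f7 and 13 to 88 for Brca1.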
